A study of Homo sapiens with 18 samples.

Results

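Lipid peroxidation control in ferroptosis was examined through 10 genes chosen by name for their known roles: GPX4, AIFM2, DHODH, GCH1, ACSL4, LPCAT3, ACSL3, SCD, POR and PEBP1. The rule names them by role and uses no measured value, but the genes were chosen with earlier results of these data known. All 10 were found among the 58302 genes of the count table, and all 10 were among the 16751 genes that passed a filter on low counts and were tested. RNA-seq had been performed in U87MG, an established human glioblastoma cell line, in 2 control libraries and in 2 libraries of Erastin (10 μM, 72 h)-treated cells. The labels describe the control as normal growth and name no vehicle. They give the libraries of each group as biological replicates of this single line. The p-values therefore reach no further than cultures of this line, and they rest on a spread estimated largely across genes. Erastin blocks the cystine importer of the cell surface and so starves cells of glutathione.

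Ferroptosis is a death in which phospholipids that carry polyunsaturated chains are oxidized to peroxides faster than these are repaired. Enzymes that load polyunsaturated fatty acids into membranes raise the amount of oxidizable lipid, and enzymes that make or load monounsaturated fatty acids lower it. GPX4 reduces the peroxides with glutathione, and several radical-trapping systems, built on ubiquinone or tetrahydrobiopterin, act beside it.

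The 4 libraries held between 29412656 and 31513519 counted reads. VIM and CD44, markers of mesenchymal glioma cells, were abundant in every library, whereas the astrocyte marker GFAP had 41 to 81 counts and SOX2 and S100B had at most 6. Of the 6 glial and mesenchymal markers tested, 4 were lower in Erastin. The 8 listed summed to 8959 and 9346 CPM (counts scaled to a common library total) in control against 3145 and 3381 CPM in Erastin. Within these sums, the matrix gene FN1 had a mean of 5192 CPM in control and 496.2 CPM in Erastin. NES fell from 1277 and 972 counts to 105 and 77 counts, a log2 fold change of -3.62 (edgeR adjusted p = 3.97e-08). VIM and CD44 had log2 fold changes of -0.60 and -0.36. GFAP had one of 0.79 and did not pass (edgeR adjusted p = 0.0696). PTPRC of leukocytes and CDH5 of endothelium were at 0 or 1 count. The 3 endothelial markers summed to 4.64 and 6.18 CPM in control and 1.64 and 2.07 CPM in Erastin, the 5 myeloid markers to 8.99 and 8.95 against 5.58 and 6.37 CPM, and the 4 neuronal markers to 54.9 and 59.5 against 14.6 and 15.8 CPM. All 13 markers of dividing cells were lower in Erastin-treated cells, and their summed level was 1681 and 1622 CPM in control against 288 and 290.4 CPM in Erastin. In the endothelial list PECAM1 fell (138 and 188 against 31 and 33 counts), while VWF was higher in Erastin (4 and 4 against 17 and 32 counts, edgeR adjusted p = 0.0125). These marker changes went along with every change given here, and their part in them was not tested. In bulk RNA, fewer cells of a type and less RNA per cell cannot be told apart.

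Of the 10 genes, 6 were higher in Erastin-treated U87MG cells at an adjusted p under 0.05 (GPX4, AIFM2, GCH1, ACSL3, SCD and POR), against 23.2% of all genes tested. ACSL4 was the single gene that was lower, against 23.7% of all genes tested. DHODH, LPCAT3 and PEBP1 did not pass the test. SCD was also past a log2 fold change of 1, a limit that 15.6% of all genes tested passed in either direction. The median log2 fold change was 0.33 over the 10 genes and -0.003 over all genes tested. The p-values come from edgeR's quasi-likelihood test with Benjamini-Hochberg adjustment over all 16751 genes. An exact permutation test of 2 libraries against 2 cannot go below a two-sided p of 0.333, so the calls rest on a spread estimated across genes.

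**Figure D1:**
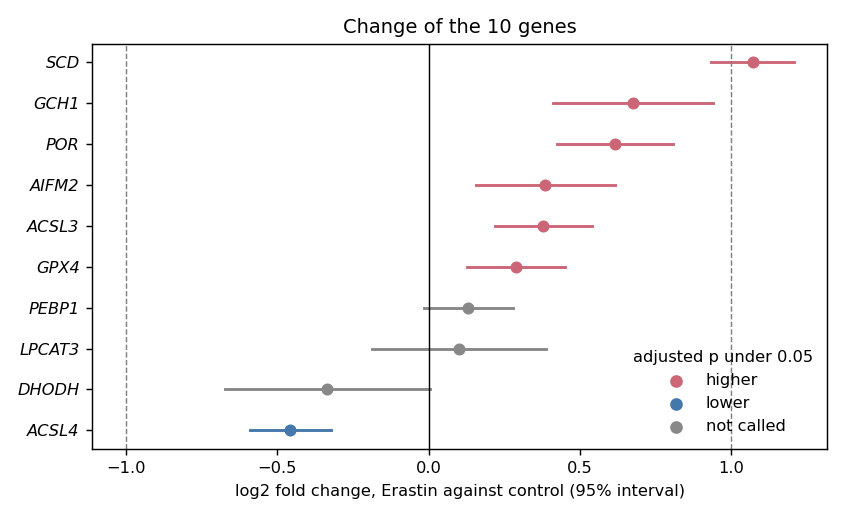
Log2 fold change of each of the 10 genes in Erastin-treated against control U87MG cells, with points for the estimates and bars for the 95% intervals, coloured by call at an adjusted p under 0.05. Dashed lines mark a log2 fold change of 1 in size. SCD has the largest change of the 10 at 1.07, ACSL4 is the single gene called lower, and the intervals of DHODH, LPCAT3 and PEBP1 cross 0.

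The levels per length (RPKM, CPM per kilobase of exon) spanned a wide range before any treatment. In control cells the mean order was PEBP1 at 164.5, SCD at 118.2, GPX4 at 110.2, ACSL4 at 71.1, ACSL3 at 12.3, POR at 10.8, AIFM2 at 6.43, GCH1 at 4.82, LPCAT3 at 3.42 and DHODH at 1.58 RPKM. The control libraries of neighbours in this order did not overlap except for ACSL3 and POR, where the lower ACSL3 library (11.7 RPKM) and the higher POR library (11.7 RPKM) met. The place of LPCAT3 depends on the length used, since 65.6% of its exon bases could not be counted. Over countable bases alone it had 10.2 and 9.69 CPM per kilobase in control, above AIFM2 and GCH1 and overlapping POR. PEBP1, SCD, GPX4 and ACSL4 were above 97.3% or more of the genes tested, and DHODH was above 35.5%. In Erastin-treated cells SCD, at 248.3 RPKM, took the place above PEBP1, at 180.1 RPKM, with no overlap of their libraries. Shared sequence may limit these levels. The share of 31-base transcript stretches that recur elsewhere on the chromosomes was 29.7% for SCD, 28.0% for PEBP1 and 18.9% for DHODH. Reads placed at several sites were not counted, and the share of reads lost in this way was not measured.

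**Figure D2:**
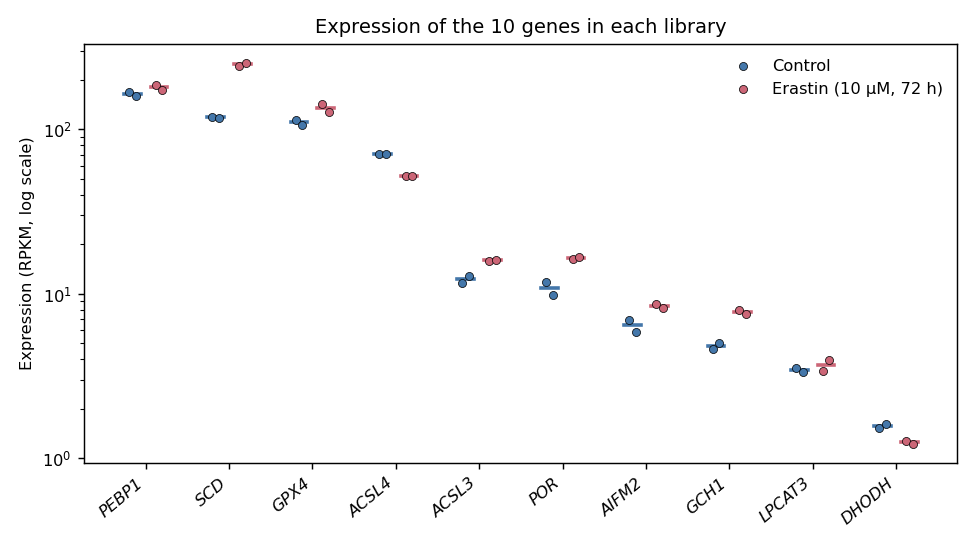
Expression of the 10 genes in each library in RPKM on a log axis, ordered by the control mean, with points for libraries and lines for group means (n = 2 per group). Control and Erastin libraries overlap for LPCAT3 alone, but full separation of 2 libraries from 2 has a two-sided exact permutation p of 0.333. DHODH and PEBP1 are separated and did not pass the test. The share of all genes tested that separate in this way was not counted.

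GPX4, on chromosome 19 (ENSG00000167468, GRCh38 chr19:1103926-1106791, plus strand), encodes the peroxidase that reduces phospholipid hydroperoxides inside membranes. Its level was 113.8 and 106.5 RPKM in control and 142.1 and 127.2 RPKM in Erastin-treated cells. Both treated libraries were above both controls, though the treated pair lay farther apart than the control pair. The gene was higher by 0.29 on the log2 scale (SE 0.0738, 95% interval 0.13 to 0.45, edgeR adjusted p = 0.00684), a 1.22-fold difference that was larger in size than that of 36.4% of the genes tested. Without Erastin replicate 1 the log2 fold change was 0.21 and the call was lost (edgeR adjusted p = 0.129).

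AIFM2, on chromosome 10 (ENSG00000042286, chr10:70098223-70132934, minus strand), encodes FSP1, which reduces ubiquinone at the plasma membrane so that it can trap lipid radicals without glutathione. Its level was 6.97 and 5.89 RPKM in control and 8.64 and 8.16 RPKM in Erastin. Both treated libraries were above both controls, and the control pair lay farther apart than the treated pair. AIFM2 had a log2 fold change of 0.39 (SE 0.105, 95% interval 0.16 to 0.62, edgeR adjusted p = 0.0100). The call was lost without control replicate 2 (0.26, edgeR adjusted p = 0.0749) and without Erastin replicate 1 (0.34, edgeR adjusted p = 0.0735).

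RefSeq promoter sequence (GRCh38.p14, the 250 bases before each annotated start) was matched for 8 of the 10 genes, with no entry matched for GCH1 and POR. Among the genes with an entry, AIFM2 and LPCAT3 held the antioxidant response element core TGANNNNGC on either strand, as did 35.2% of 35116 promoters. No promoter of the 8 held the ATF4 and CHOP composite element TGATGNAA (3.14% of promoters) or the sterol response element core TCACNCCAC (0.883% of promoters). The AIFM2 match is shown because that gene is called higher, with 10 bases on each side (chr10:70132829-70132857, minus strand) and the match in capitals. The match lies before the RefSeq start but inside the AIFM2 span of the count table, which begins upstream of it. It reads TGANNNNGC on the opposite strand, and such a match is a description of the letters alone.
AIFM2: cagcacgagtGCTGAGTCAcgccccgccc

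GCH1, on chromosome 14 (ENSG00000131979, chr14:54842008-54902852, minus strand), encodes GTP cyclohydrolase, the rate-limiting enzyme of tetrahydrobiopterin synthesis. Its level was 4.63 and 5.01 RPKM in control and 7.92 and 7.49 RPKM in Erastin. The groups were well separated, by more than the distance within either pair. The log2 fold change was 0.68 (SE 0.120, 95% interval 0.41 to 0.94, edgeR adjusted p = 6.52e-04), with an interval that overlapped that of POR.

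DHODH, on chromosome 16 (ENSG00000102967, chr16:72008588-72027664, plus strand), encodes the mitochondrial dehydrogenase of pyrimidine synthesis, which passes its electrons to ubiquinone. Its level was 1.53 and 1.62 RPKM in control and 1.28 and 1.22 RPKM in Erastin. Both treated libraries were below both controls, on 264 to 349 counts per library. The log2 fold change of -0.33 (SE 0.155, 95% interval -0.67 to 0.00) did not pass the test (edgeR adjusted p = 0.0979). Relative to GPX4, the level of AIFM2 was 0.0612 and 0.0553 in control and 0.0608 and 0.0641 in Erastin, an overlap of the groups. The same ratio for GCH1 was 0.0407 and 0.0470 against 0.0557 and 0.0588, without overlap.

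ACSL4, on chromosome X (ENSG00000068366, chrX:109624244-109733403, minus strand), encodes the acyl-CoA synthetase that activates arachidonic and adrenic acid for entry into phospholipids. Its level was 71.2 and 71.0 RPKM in control and 51.7 and 51.9 RPKM in Erastin. The libraries of each group were almost alike and the groups lay far apart. ACSL4 fell by 0.46 on the log2 scale (SE 0.0614, 95% interval -0.59 to -0.32, edgeR adjusted p = 7.72e-05), so that the control level was 1.37-fold the treated level. Its log2 fold change was between -0.47 and -0.41 under all 13 alternative settings tried.

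LPCAT3, on chromosome 12 (ENSG00000111684, chr12:6976186-7018510, minus strand), encodes the acyltransferase that places polyunsaturated chains in lysophospholipids, the step after ACSL4. Its level was 3.52 and 3.33 RPKM in control and 3.37 and 3.97 RPKM in Erastin. The groups overlapped, and the log2 fold change of 0.10 (SE 0.132, 95% interval -0.19 to 0.39) did not pass the test (edgeR adjusted p = 0.566). In the annotation used for counting, 3100 of the LPCAT3 exon bases are also exon bases of EMG1 on the opposite strand, and reads there were not counted for either gene. Over the 1625 unshared bases the level was 10.2 and 9.69 CPM per kilobase in control and 9.79 and 11.6 CPM per kilobase in Erastin, which also overlapped.

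ACSL3, on chromosome 2 (ENSG00000123983, chr2:222860934-222944639, plus strand), encodes the synthetase that activates monounsaturated fatty acids such as oleate and is linked with lipid droplets. Its level was 84.3 and 93.4 CPM in control and 115.2 and 115.8 CPM in Erastin. Both treated libraries were above both controls and almost equal. The log2 fold change was 0.38 (SE 0.0737, 95% interval 0.22 to 0.54, edgeR adjusted p = 0.00122). Its sign was opposite to that of ACSL4, and the ratio of ACSL4 to ACSL3 went from 6.11 and 5.50 in control to 3.25 and 3.24 in Erastin.

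SCD, on chromosome 10 (ENSG00000099194, chr10:100347124-100364834, plus strand), encodes stearoyl-CoA desaturase, which makes oleate and palmitoleate from saturated chains. Its level was 119.3 and 117.2 RPKM in control and 243.6 and 252.9 RPKM in Erastin. The groups lay far apart, and the counts were high in every library, from 19515 to 42613. The log2 fold change was 1.07 (SE 0.0623, 95% interval 0.93 to 1.21, edgeR adjusted p = 7.61e-08), a 2.10-fold difference that was larger in size than that of 81.4% of the genes tested. Its processed pseudogene SCDP1 on chromosome 17 had 3 to 12 counts. Per length, SCD was 1.68 and 1.65 times as abundant as ACSL4 in control and 4.72 and 4.87 times in Erastin. These ratios are descriptions of 2 genes that moved in opposite directions, and no test was run on them.

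**Figure D3:**
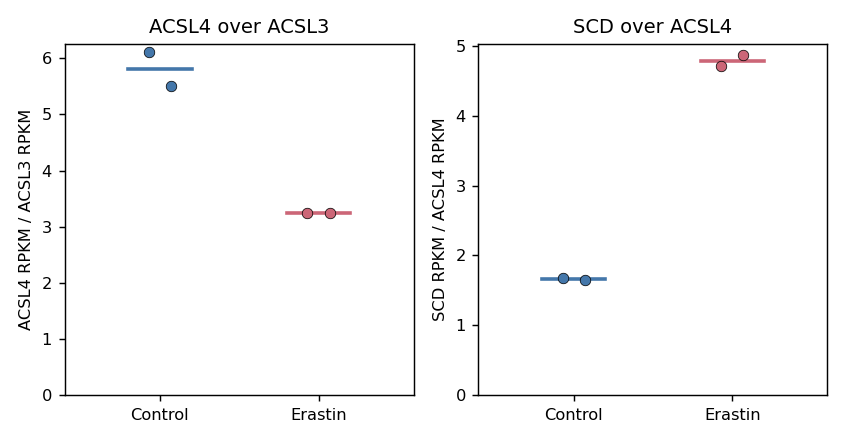
Ratio of the RPKM of ACSL4 to that of ACSL3 (left) and of SCD to ACSL4 (right) in each library, with points for libraries and lines for group means on axes that start at 0. The first ratio is 5.50 or more in control and 3.25 or less in Erastin, and the second is 1.68 or less in control and 4.72 or more in Erastin.

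The stretches of promoter that lie before the first annotated base of SCD (chr10:100346983-100347123, plus strand) and of ACSL4 (chrX:109733404-109733507, minus strand) are shown because these 2 genes had the smallest adjusted p of those called higher and lower. The SCD stretch of 141 bases has a GC content of 61% and the ACSL4 stretch of 104 bases one of 78.8%. Neither holds any of the motifs searched, which says only that those letters are absent from the windows. Over the full 250 bases the GC content of the 8 matched genes was 66.8% to 80.4%, against a median of 58% over all promoters.
SCD: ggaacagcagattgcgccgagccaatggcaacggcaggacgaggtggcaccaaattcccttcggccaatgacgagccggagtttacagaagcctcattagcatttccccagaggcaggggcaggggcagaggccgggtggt
ACSL4: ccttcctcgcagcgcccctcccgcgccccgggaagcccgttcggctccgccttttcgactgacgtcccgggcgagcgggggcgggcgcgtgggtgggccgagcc

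POR, on chromosome 7 (ENSG00000127948, chr7:75899200-75986855, plus strand), encodes cytochrome P450 reductase, a flavoprotein that passes electrons from NADPH and can feed lipid peroxidation. Its level was 11.7 and 9.83 RPKM in control and 16.3 and 16.8 RPKM in Erastin. Both treated libraries were above both controls, and the control pair lay farther apart than the treated pair. The rise of POR on the log2 scale was 0.62 (SE 0.0875, 95% interval 0.43 to 0.81, edgeR adjusted p = 1.16e-04).

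PEBP1, on chromosome 12 (ENSG00000089220, chr12:118135858-118145584, plus strand), encodes a scaffold protein that binds lipoxygenases and directs them to phospholipids. Its level was 169.1 and 159.9 RPKM in control and 185.7 and 174.5 RPKM in Erastin. Both treated libraries were above both controls, and the gap between the groups was smaller than the distance within either pair. The log2 fold change of 0.13 (SE 0.0670, 95% interval -0.02 to 0.28) did not pass the test (edgeR adjusted p = 0.133). It passed with library totals in place of TMM factors (0.18, edgeR adjusted p = 0.0362) and without control replicate 1 (0.17, edgeR adjusted p = 0.0474). The PEBP1 pseudogenes PEBP1P1, PEBP1P2 and PEBP1P3 had at most 5 counts in a library.

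The surrounding pathways were read from 11 lists with 112 genes, the 10 genes left out. Of these, 93 were tested, 34 were higher in Erastin-treated cells, 25 were lower and 34 did not pass. The median log2 fold change over the 93 was 0.10. The genes called higher were 36.6% and those called lower 26.9% of the 93, beside 23.2% and 23.7% of all genes tested.

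**Figure D4:**
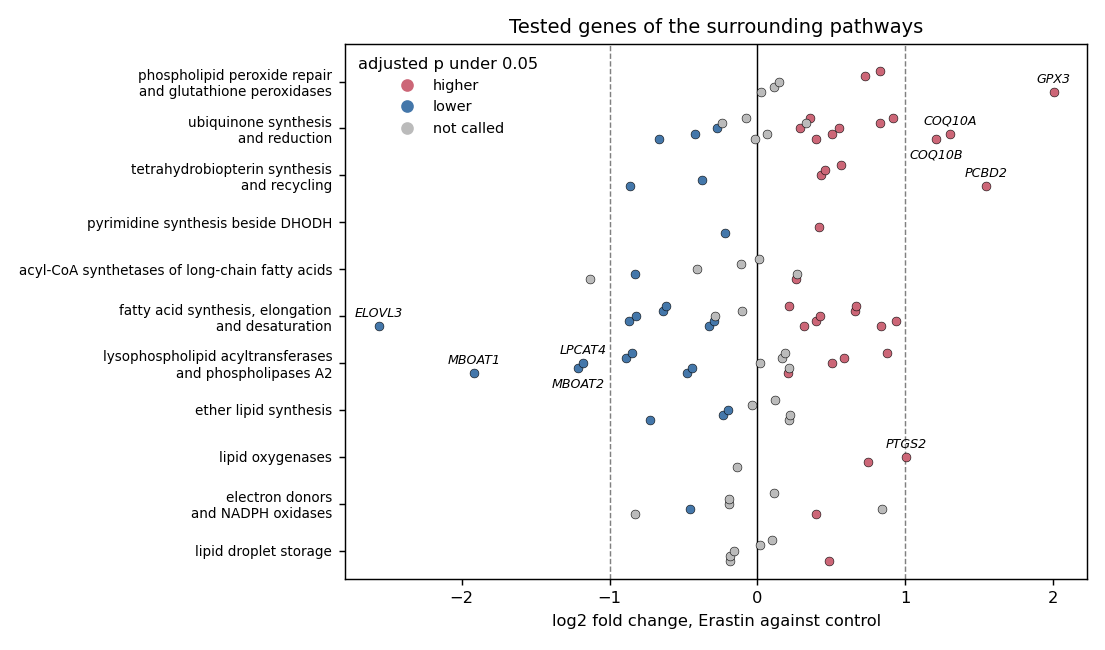
Log2 fold change in Erastin-treated against control U87MG cells of the 93 tested genes of the 11 pathway lists, 1 point per gene, coloured by call at an adjusted p under 0.05, with dashed lines at a log2 fold change of 1 in size. Named genes are the 5 higher and 4 lower genes past that size. Ubiquinone genes lie mostly above 0, and lysophospholipid acyltransferases lie on both sides.

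Among the other peroxidases, 3 of 6 tested (50.0%, beside 23.2% of all genes tested) were higher and none was lower. Their median was 0.44 on the log2 scale. GPX3, the secreted glutathione peroxidase, was low, with 1.57 and 0.74 CPM in control and 4.28 and 5.00 CPM in Erastin (log2 fold change 2.00, SE 0.355, edgeR adjusted p = 6.23e-04). The size of the GPX3 change rested on the control libraries, with 2.64 without control replicate 1 and 1.55 without control replicate 2. GPX1, the abundant cytosolic paralog of GPX4, had 169.1 and 140.5 CPM in control and 285.8 and 264.2 CPM in Erastin, a log2 fold change of 0.83 (edgeR adjusted p = 1.17e-05). Both were separated between the groups, and the 95% interval of GPX1 (0.64 to 1.02) lay above that of GPX4 (0.13 to 0.45). MGST1, a membrane-bound glutathione transferase with peroxidase activity, was higher by 0.73 (edgeR adjusted p = 5.77e-06). GPX8, PRDX6 and MGST3 had log2 fold changes of 0.02 to 0.14 and did not pass, though MGST3 passed without control replicate 2 (0.24).

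The ubiquinone list, which holds the makers and reducers of the electron carrier used by AIFM2 and DHODH, had all 17 genes tested. Of these, 9 (52.9%) were higher and 3 (17.6%) lower, beside 23.2% and 23.7% of all genes tested. The list's median was 0.33 on the log2 scale. The lipid-binding chaperones of ubiquinone COQ10A and COQ10B were past a log2 fold change of 1. COQ10B had 42.4 and 43.5 CPM in control and 101.4 and 96.7 CPM in Erastin (1.21, SE 0.0750, edgeR adjusted p = 1.32e-07), and COQ10A had 7.85 and 9.95 against 21.3 and 22.6 CPM (1.30, SE 0.147, edgeR adjusted p = 1.89e-05). In COQ10A, 9.84% of exon bases are shared with another gene. NQO1, a quinone reductase and a classic antioxidant response gene, was higher by 0.92 (edgeR adjusted p = 4.41e-07), with 17.7% of its exon bases shared with another gene. COQ7, a hydroxylase of the synthesis pathway, was higher by 0.83 (edgeR adjusted p = 1.39e-04). COQ2, the transferase that joins the ring to its tail, went the other way and fell by 0.67 on the log2 scale (edgeR adjusted p = 0.00262).

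All 6 tested genes of the tetrahydrobiopterin list beside GCH1 passed the test, 4 higher (66.7%) and 2 lower (33.3%). Of all genes tested, 23.2% were higher and 23.7% lower. PTS and SPR, which complete the synthesis that GCH1 begins, had log2 fold changes of 0.56 and 0.43, and QDPR, which recycles the cofactor, had one of 0.45. PCBD2 had the largest change, from 3.07 and 4.51 CPM to 12.3 and 9.93 CPM (1.55, SE 0.221, edgeR adjusted p = 1.24e-04). GCHFR, the feedback regulator of GCH1, had 6 to 11 counts per library and was not tested. The genes beside DHODH in pyrimidine synthesis split, with CAD lower at -0.22 (edgeR adjusted p = 0.0305) and UMPS higher at 0.42 (edgeR adjusted p = 0.00337). The CAD call was lost with library totals (-0.17), without control replicate 1 (-0.14), without Erastin replicate 1 (-0.23) and without Erastin replicate 2 (-0.20).

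Among the other long-chain acyl-CoA synthetases, 1 of 7 tested was higher and 1 was lower (14.3% each). These shares were below the 23.2% and 23.7% of all genes tested. SLC27A1, a fatty acid transport protein, had 53.7 and 42.3 CPM in control and 26.2 and 27.9 CPM in Erastin, a log2 fold change of -0.83 (edgeR adjusted p = 1.29e-04). ACSL1, a paralog of ACSL3 and ACSL4, had one of -0.11 and did not pass (edgeR adjusted p = 0.371).

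In fatty acid synthesis, elongation and desaturation, 8 of 17 tested genes (47.1%) were higher and 7 (41.2%) were lower. Of all genes tested, 23.2% were higher and 23.7% lower. The lower genes include TECR, HACD3 and ELOVL5, with log2 fold changes of -0.87, -0.62 and -0.29 (edgeR adjusted p = 3.06e-06, 1.30e-05 and 0.00476). The desaturase genes FADS1, FADS2 and FADS3 were higher by 0.67, 0.66 and 0.84 (edgeR adjusted p = 1.06e-05, 0.00205 and 3.36e-06). SREBF1, the transcription factor of lipid synthesis, was higher by 0.40 (edgeR adjusted p = 0.00217). SCD5, the paralog of SCD, moved against it, from 36.8 and 35.0 CPM to 21.2 and 24.8 CPM, a log2 fold change of -0.64 (edgeR adjusted p = 5.53e-04). ELOVL3, an elongase of saturated and monounsaturated chains, was low and fell from 79 and 76 counts to 9 and 17 counts (-2.56, SE 0.433, edgeR adjusted p = 4.45e-04).

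The lysophospholipid acyltransferases and phospholipases A2, the enzymes that remodel the chains beside LPCAT3, had 4 of 15 tested genes higher and 7 lower. These were 26.7% and 46.7%, beside 23.2% and 23.7% of all genes tested. MBOAT2, LPCAT4 and MBOAT1, which reacylate lysophospholipids, were past a log2 fold change of -1. Their sign was opposite to that of SCD and ACSL3, and the chains they load were not measured here. MBOAT2 had 79.8 and 83.7 CPM in control and 35.1 and 35.5 CPM in Erastin (-1.21, SE 0.0789, edgeR adjusted p = 1.99e-07), and LPCAT4 had 66.1 and 67.7 against 26.95 and 32.1 CPM (-1.18, SE 0.0983, edgeR adjusted p = 1.57e-06). MBOAT1 had 52 and 40 counts in control and 14 and 10 in Erastin (-1.92, SE 0.508, edgeR adjusted p = 0.00850). Its call was lost without control replicate 1 (-1.71, edgeR adjusted p = 0.0670). LPCAT1 did not pass at 0.16 (edgeR adjusted p = 0.542), and its sign depended on the control library used. It passed without control replicate 1 (0.52, edgeR adjusted p = 0.0309) and was -0.13 without control replicate 2. PNPLA8, a calcium-independent phospholipase A2, was higher by 0.87 (edgeR adjusted p = 2.02e-06).

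Of 7 ether lipid genes, none was higher and 3 (42.9%, beside 23.7% of all genes tested) were lower, led by FAR2, a fatty acyl-CoA reductase, at -0.73 (edgeR adjusted p = 7.89e-05). Among electron donors and NADPH oxidases, the list nearest to POR in function, 1 of 7 was higher and 1 was lower (14.3% each). Those shares were below the 23.2% and 23.7% of all genes tested. The higher gene was CYB5R1 at 0.40 (edgeR adjusted p = 0.0020). CYB5B, an outer mitochondrial cytochrome b5, was the lower gene and had the smallest adjusted p of that list at -0.46 (edgeR adjusted p = 1.46e-04). In CYB5B, 35.1% of exon bases are shared with another gene. Of 6 lipid droplet genes, PNPLA2, the triglyceride lipase, was the single one called, higher by 0.48 (edgeR adjusted p = 4.85e-04). That is 16.7% higher, beside 23.2% of all genes tested.

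Of 9 lipid oxygenase genes, 3 had enough counts to be tested and 2 of them, PTGS2 and ALOXE3, were higher. This share of 66.7% rests on 3 genes and stands beside 23.2% of all genes tested. PTGS2, the inducible cyclooxygenase often used as a ferroptosis marker, had 27.7 and 27.3 CPM in control and 53.2 and 57.3 CPM in Erastin. Its log2 fold change was 1.005 (SE 0.0916, edgeR adjusted p = 3.28e-06), barely past 1. It was 0.99 without control replicate 2 and 0.95 without Erastin replicate 2. ALOXE3, an epidermal lipoxygenase, had 140 and 124 counts in control and 174 and 269 in Erastin (0.75, edgeR adjusted p = 0.0199), and its call was lost without Erastin replicate 2 (0.44, edgeR adjusted p = 0.224). ALOX12 did not pass at -0.14. ALOX15, a partner of PEBP1, had 0 counts in 3 libraries and 6 in the other, and ALOX15B had 0 in 3 and 7 in the other. ALOX5 had 0 counts in every library, where 3 counts correspond to 0.0955 to 0.1003 CPM. These limits cover counting error only.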

How the data were processed

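RNA of 4 U87MG libraries (2 control, 2 Erastin at 10 μM for 72 h) was sequenced. Per the file headers and labels, reads were aligned with HISAT2 2.1.0 to GRCh38 and the authors counted them per gene of Ensembl release 90 with featureCounts. The labels name version 2.0.4, the file header version 2.0.3, and the study's methods name another counter. The deposited values are raw counts per gene. The command in the header counted the reads of a pair singly, without strand, and left out reads placed at several sites or on several genes. The deposited counts were all whole numbers, so that reading 1 column as estimated counts and rounding it changed no value. Every count column matched a labelled sample. ChIP-seq and HiChIP data were not analysed here.

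Here, genes were filtered with filterByExpr (minimum count 10), scaled with TMM factors (0.971 to 1.02) and tested over all 16751 genes with edgeR 4.0.16 (glmQLFit and glmQLFTest, R 4.3.3), without covariates, and p-values were adjusted after Benjamini-Hochberg. A gene was called at an adjusted p under 0.05. CPM and RPKM used TMM-scaled totals and the exon length of the table, and SD is over 2 libraries. The method was tested on simulated counts, where the changed genes that were missed all lay below the median count, and the share required to pass was lowered after this result was seen. Gene types came from GENCODE version 44 and promoters from RefSeq. Motifs were searched on both strands.

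The 10 genes, the pathway and marker lists, the tests and the motifs were chosen with earlier results of these data known. The text names all 10 genes, each pathway gene past a log2 fold change of 1 in size (or the smallest adjusted p of a list without one) and the paralogs GPX1, SCD5, ACSL1, LPCAT1 and GCHFR. Further pathway genes, and the printed promoters, were picked with their values in view. Some pathway genes counted in the lists are not reported here by name. Counts of calls were recomputed under alternative settings. So were fold changes of the 10 genes and of the pathway genes named, except ALOX12, CYB5R1, ELOVL5, HACD3 and TECR. The settings were library totals or RLE size factors, DESeq2 1.42.0, no count filter or a stricter one, and the replicate number as a block. Others were counts thinned to the smallest library, protein-coding genes alone, and each library left out in turn. In another, the deposited counts were halved to stand for pairs of reads, and no pairs were recounted. Reads carried no molecular identifiers, so limits from counts cover counting error only.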

Additional observations from a re-analysis of the deposited data

How the results depend on the processing

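Of the 10 genes, 13 alternatives left 1 gene lower (ACSL4) and 1 past a log2 fold change of 1 (SCD) each time, and 6 higher except with library totals (7) and when a library was left out (4 to 7). GPX4, AIFM2, PEBP1, MBOAT1, LPCAT1, CAD, MGST3 and ALOXE3 changed calls as given beside their values, and ELOVL3 has no value under the stricter count filter. The LPCAT3 log2 fold change was -0.023 to 0.21 and that of LPCAT1 was -0.13 to 0.52 when 1 library was left out, and that of PRDX6 was -0.011 to 0.053, so that the sign of each turned. The causes were not tested. Pathway genes called higher numbered 29 to 40 and lower 20 to 28 over the alternatives. The labels give the replicates the same numbers, but the deviations of same-numbered libraries correlated at 0.0203, so the numbers are not taken as pairs. With the replicate block, 6 of the 10 genes were higher and 27 pathway genes were lower, against 25 without it. Library totals moved the median of all genes to 0.05 on the log2 scale. Genes with few counts, such as GCHFR and most lipoxygenases, could not be tested at this depth.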
